A study of Mus musculus with 54 samples.

Results

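miR-342 is a microRNA (miRNA) that is cut from an intron of Evl, the gene of an Ena/VASP-like protein that helps build actin filaments. Both of its mature arms, mmu-miR-342-3p and mmu-miR-342-5p (the prefix is left off below), were followed in the liver and epididymal fat count tables, where they are 2 of 1966 names, and in the sperm table, which lists miR-342-3p among 79 miRNAs and does not list miR-342-5p. The pair was chosen by its measured levels in epididymal fat, which were far higher on a high-fat than on a low-fat diet, so that difference, and the one after a change of diet that shares the same libraries, are described below without a test.

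Small RNA was sequenced from wild-type C57BL/6 males of the F0 generation, aged 24 weeks, that had been placed on their diets when 6 weeks old. The control group (LF) was fed low fat for all 18 weeks and the HF group high fat for the same time, while the HFLF group was switched from high to low fat after 9 weeks and kept there for another 9. The tissues were liver, sperm and epididymal white adipose tissue (eWAT, a visceral fat depot attached to the epididymis), with 6 libraries per diet in each and 54 altogether. Liver libraries held 7017730 to 14394584 counts and eWAT libraries 7481038 to 13022536. The hepatocyte miRNA miR-122-5p took 37.9% to 51.4% of liver counts and 0.00798% to 0.798% of eWAT counts, while miR-143-3p, abundant in fat, took 4.36% to 24.5% of eWAT counts. In eWAT, libraries LF 4, LF 5 and HFLF 4 stood apart by high levels of epithelial miRNAs (the summed epithelial list reached 8533 CPM among LF and 2018 among HFLF libraries, and at most 147 CPM among HF libraries). LF 3 and LF 2, at 1337 and 484 CPM, also lay above all HF libraries. Both stay in where LF 4, LF 5 and HFLF 4 are left out below. In sperm, 1 of the 6 listed germ cell miRNAs is in the table. Whether the libraries of a group came from separate animals is not stated in the labels, and p-values therefore cover the spread between libraries only, which may be technical.

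A miRNA hairpin gives up to a pair of mature strands, named by the end they come from, and the strand loaded into an Argonaute protein finds its target messages mainly through the seed, bases 2 to 8. miR-342 is known as a miRNA of blood and immune cells. In human cells it is induced by the myeloid factor PU.1 during granulocyte differentiation, and its 5p arm has been linked to inflammatory activation of mouse macrophages. Fat tissue on a long high-fat diet is known to take up macrophages and other leukocytes.

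The sequences show what was counted: a 5p and a 3p arm of different seed from a single hairpin. They are those of RefSeq for GRCm38.p6, written 5′ to 3′, with the seed in capitals in each mature arm and both arms in capitals in the hairpin.
miR-342-5p: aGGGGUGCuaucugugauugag
miR-342-3p: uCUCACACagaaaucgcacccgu
Mir342 hairpin: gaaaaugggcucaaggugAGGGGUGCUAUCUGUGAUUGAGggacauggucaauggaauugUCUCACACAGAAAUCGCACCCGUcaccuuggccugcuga
The 5p arm spans bases 19 to 40 of the 99-base hairpin and the 3p arm bases 61 to 83. In GRCm38.p6 the hairpin lies on the plus strand at chr12:108658620-108658718, with the 5p arm at chr12:108658638-108658659 and the 3p arm at chr12:108658680-108658702. Of the 1679 mature names in the RefSeq table, 0 others carried the seed of either arm. That search covers the 1675 of the 1966 counted names that have a sequence there, and the other counted names were not searched. Evl lies on the same strand at chr12:108554720-108688516. The hairpin is in intron 3 of the principal transcript Evl-201, which has 14 exons. That intron is 20189 bases long, and the hairpin starts 5520 bases after its first base and ends 14570 bases before its last. All 5 Evl transcripts that span the hairpin hold it in that same intron, which is intron 4 of Evl-204, and no exon of them overlaps it.

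In liver both arms were expressed at similar levels on all 3 diets. Levels are given in CPM, counts per 1000000 after TMM scaling (trimmed mean of M-values). miR-342-3p ranged in LF from 43.1 to 82.0 CPM with a median of 62.4. In HF it ranged from 52.2 to 80.2 CPM with a median of 69.0, and in HFLF from 50.4 to 67.7 CPM with a median of 58.3. The groups overlapped, with no HF library above all LF libraries. No HFLF library lay above all HF libraries, and 1 lay below all of them. The means were 62.2 ± 14.3 CPM in LF, 67.1 ± 13.2 in HF and 58.9 ± 6.63 in HFLF (SD, n = 6 each).

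The 5p arm was scarce in liver. It ranged in LF from 0.620 to 4.96 CPM with a median of 3.93, in HF from 1.65 to 6.03 CPM with a median of 3.63, and in HFLF from 2.79 to 5.50 CPM with a median of 3.67. The lowest value, in library LF 3, rested on 5 counts, against 17 to 51 counts in the other 17 liver libraries. The limit that 3 counts set was 0.199 to 0.451 CPM in liver, so that library lay close to it. The 3 diets overlapped throughout.

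No difference of either arm passed the test in liver (2-sided edgeR quasi-likelihood test, threshold of 0.05 for p adjusted after Benjamini-Hochberg across the miRNAs of the tissue). For HF against LF, where 5.69% of 422 miRNAs passed (2.61% higher, 3.08% lower, which is 11 and 13; 51 and 10 by total counts), 0 of the 2 arms did. The log2 fold change was 0.11 for miR-342-3p (95% confidence interval -0.20 to 0.43, adjusted p = 0.754) and 0.10 for miR-342-5p (-0.66 to 0.86, adjusted p = 0.940). For HFLF against LF it was -0.08 for miR-342-3p (-0.39 to 0.24, adjusted p = 0.915) and 0.13 for miR-342-5p (-0.63 to 0.90, adjusted p = 0.949). For HFLF against HF it was -0.19 for miR-342-3p (-0.50 to 0.13, adjusted p = 0.692) and 0.03 for miR-342-5p (-0.73 to 0.79, adjusted p = 0.968). In the last pair of comparisons 0% of the 422 miRNAs passed (0 by edgeR, with 51 and 65 at an unadjusted p below 0.05, and 4 and 15 by DESeq2). The intervals of the 3p arm leave out changes of the size seen in fat. Signs of the small differences were not stable: with total-count scaling the miR-342-3p value for HFLF against LF turned to 0.042 and the miR-342-5p value for HFLF against HF to -0.082.

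In eWAT both arms stood far apart between the diets. miR-342-3p ranged in LF from 83.1 to 115.2 CPM with a median of 100.4. In HF it was at 956 CPM in library 1, 519 in library 2, 2055 in library 3, 1120 in library 4, 234.5 in library 5 and 337 in library 6. In HFLF it ranged from 110.0 to 303 CPM with a median of 152. All 6 HF libraries lay above all LF libraries, and 5 of 6 HFLF libraries lay below all HF libraries. The pair was chosen for its high HF levels, and how many other eWAT miRNAs were set apart as fully is not given here. HFLF 2, the highest of its group, lay between HF 5 and HF 6. Means were 99.7 ± 10.49 CPM in LF, 870.0 ± 676 in HF and 170.5 ± 69.9 in HFLF (SD, n = 6 each).

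The 5p arm had the same layout at a lower level. It ranged in LF from 5.18 to 8.57 CPM with a median of 6.26. In HF its values were 65.9, 23.3, 121.6, 72.5, 12.3 and 19.0 CPM in libraries 1 to 6. In HFLF it ranged from 6.77 to 19.4 CPM with a median of 9.43. Again all 6 HF libraries were above all LF libraries, and 5 of 6 HFLF libraries were below all HF libraries. Means were 6.57 ± 1.18 CPM in LF, 52.4 ± 42.3 in HF and 10.46 ± 4.66 in HFLF.

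**Figure D1:**
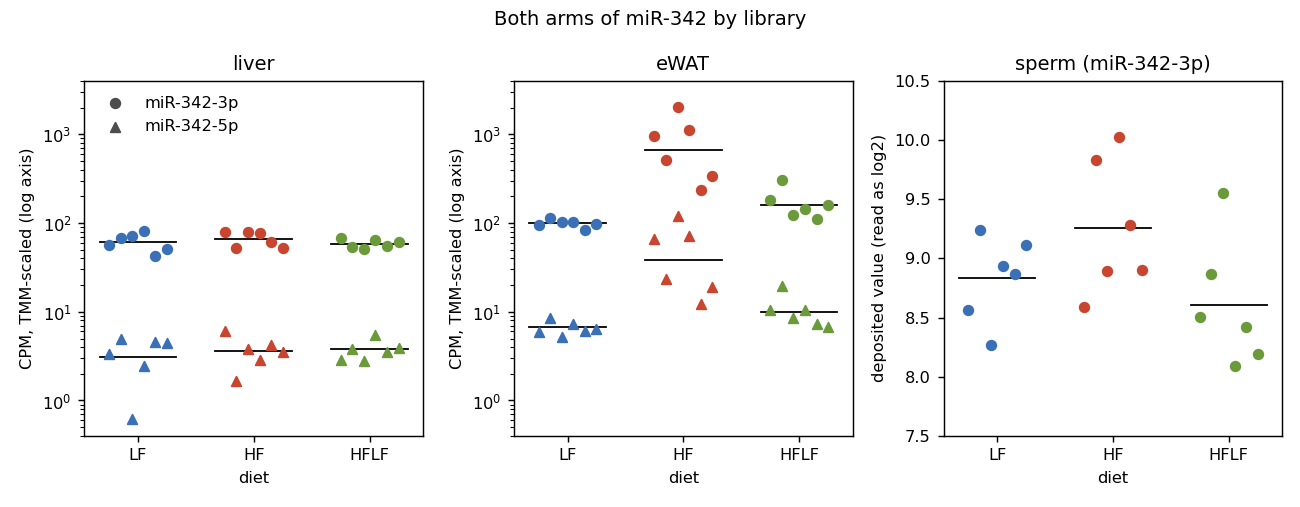
miR-342 by library and diet, in liver and eWAT as TMM-scaled CPM on a log axis (circles for the 3p arm, triangles for the 5p arm) and in sperm as the deposited value for the 3p arm, with n = 6 libraries per diet. Points stand for libraries 1 to 6 from left to right, and black lines for the mean on the log2 scale. The 6 eWAT HF libraries sit between 234.5 and 2055 CPM for the 3p arm, all above the LF libraries at 83.1 to 115.2, while the liver groups overlap.

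As a description, the eWAT log2 fold change of HF over LF was 3.13 (SE 0.43) for miR-342-3p, 8.72-fold, and 2.995 (SE 0.48) for miR-342-5p, 7.97-fold. They ranked 3 and 4 from the top among 571 miRNAs, of which 34.9% passed the edgeR test in this comparison (19.6% higher, 15.2% lower). That split of 112 higher and 87 lower depended on scaling, with 205 higher and 53 lower by total counts and 100 higher and 111 lower by RLE (relative log expression). The 3p arm was the 161st most abundant miRNA of eWAT in LF, the 66th in HF and the 127th in HFLF. For HFLF against HF the log2 fold changes were -2.35 (SE 0.42) and -2.32 (SE 0.46), the lowest and the second lowest of the 571, of which 25.9% passed (9.63% higher, 16.3% lower, which is 55 and 93; 25 and 138 by total counts). Both comparisons share the HF libraries, so the second is no separate evidence of the first. Total-count scaling moved the median over all 571 for HF against LF from 0.03 to 0.32, and the log2 fold change of miR-342-3p to 3.46. In whole tissue, fewer cells of a type and less RNA per cell cannot be told apart.

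After the return to low-fat food neither arm differed from LF beyond the threshold. All 6 HFLF libraries lay above the LF mean for each arm, and 5 of 6 lay above all LF libraries for miR-342-3p and 3 of 6 for miR-342-5p. How many of the 571 miRNAs were set apart to this degree is not given here. These counts therefore cannot show an excess particular to miR-342. The log2 fold change of HFLF over LF was 0.77 for miR-342-3p (95% confidence interval -0.06 to 1.61, adjusted p = 0.459 by edgeR) and 0.67 for miR-342-5p (-0.27 to 1.61, adjusted p = 0.626). In this comparison 0% of the 571 miRNAs passed (0 by edgeR, 65 at an unadjusted p below 0.05, 9 by DESeq2). The unadjusted p was 0.0683 for the 3p arm and 0.150 for the 5p arm. Both intervals reach from slightly below 0 to 1.61, so a remaining excess over LF was neither shown nor closely bounded. The LF libraries here are those of the comparison for which miR-342 was chosen. Without HFLF 2, the 3p value was 0.52 (adjusted p = 0.722).

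The spread between libraries also differed between the diets in eWAT. On the log2 scale the SD of miR-342-3p in eWAT was 0.15 in LF, 1.17 in HF and 0.52 in HFLF. In LF 532 of the 571 miRNAs were more variable than miR-342-3p, and in HF 53 were. Among the 277 miRNAs at least as abundant as miR-342-5p, 9 exceeded the HF spread of miR-342-3p. The highest HF library held 8.76 times the miR-342-3p level of the lowest and 9.89 times the miR-342-5p level. In liver the SD of miR-342-3p was 0.34 in LF, 0.29 in HF and 0.16 in HFLF. These SDs were not tested against each other.

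The balance of the 2 arms did not differ detectably between groups. The 5p share, the percentage that miR-342-5p made of the counts of both arms, needs no scaling between libraries. In eWAT it was 4.83% to 6.93% in LF with a median of 6.30%, 4.29% to 6.45% in HF with a median of 5.46%, and 4.08% to 6.67% in HFLF with a median of 6.09%. The 3 ranges overlapped although the levels of the arms differed several-fold between LF and HF. The pair was chosen for high levels in HF over LF, so a similar share in those groups is partly built in. In liver the share was 0.859% to 9.53% in LF with a median of 6.20%, 3.03% to 7.06% in HF with a median of 5.38%, and 4.05% to 7.86% in HFLF with a median of 5.97%. Liver LF spread most widely, from library LF 3 with 5 of 582 counts (0.859%, 95% Wilson interval 0.368% to 1.995%) to LF 5 with 47 of 493 (9.53%, 7.25% to 12.4%). The intervals cover counting error only.

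None of the 9 comparisons of the 5p share between diets or tissues passed a 2-sided exact permutation test, with 6 against 6 libraries and all adjusted p at 0.855. The means in eWAT were 6.17% ± 0.777 in LF, 5.46% ± 0.773 in HF and 5.80% ± 0.940 in HFLF (SD, n = 6 each). The largest contrast by p was HF against LF in eWAT, a difference of -0.717 percentage points with an exact permutation p of 0.143, where the smallest possible is 0.00216. All comparisons with eWAT HF use libraries by whose levels the pair was chosen. In liver the means were 5.62% ± 3.23 in LF, 5.15% ± 1.67 in HF and 5.95% ± 1.28 in HFLF.

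**Figure D2:**
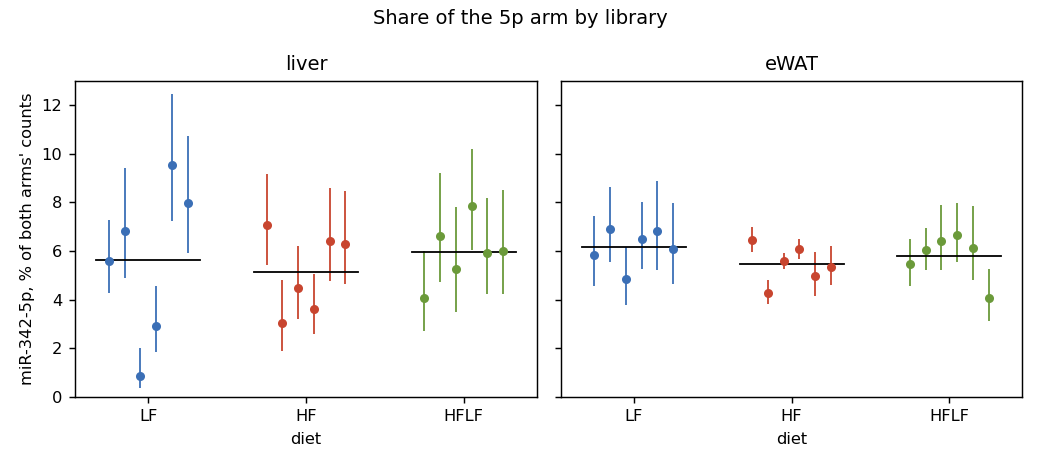
miR-342-5p as a percentage of the counts of both arms, by library and diet in liver and eWAT, with 95% Wilson intervals for counting error as bars and the group mean of 6 libraries as black lines. Group means lie between 5.15% and 6.17% in both tissues, and liver LF 3 is the lowest library at 0.859%.

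Across the HF libraries of eWAT both arms moved together. Over these 6 libraries log2 CPM of miR-342-3p and miR-342-5p had a Pearson r of 0.99 and a Spearman rho of 1, each with an exact permutation p of 0.00278, the smallest that 6 libraries allow (adjusted p = 0.0167 over the 6 tissue and diet groups). Without the 2 libraries farthest from the median r was 0.977. The arms come from a single hairpin and share library, depth and scaling. The pair was also chosen by its levels in these HF libraries, so the relation is best read as a description. The other 5 groups did not pass: r was 0.87 in eWAT HFLF (adjusted permutation p = 0.208), 0.58 in eWAT LF (0.344), -0.52 in liver LF (0.350), 0.54 in liver HF (0.350) and 0.33 in liver HFLF (0.542). Without the 2 farthest libraries these became 0.191, 0.228, -0.601, 0.024 and 0.821, in the same order. In those groups the level varied less and, in liver, the 5p counts were low.

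The values of miR-342 in fat can be set beside a list of 13 other leukocyte miRNAs, of which 11 had enough counts to be tested in eWAT (miR-155-3p and miR-147-3p did not). For HF against LF 6 of the 11 were higher and 0 lower (edgeR), against 19.6% higher among all 571 miRNAs. By total counts 9 of the 11 and 205 of the 571 were higher, and by RLE 6 and 100. Their median log2 fold change was 0.76 and the range -0.38 to 1.11, against a median of 0.03 over all 571. The highest member value, 1.11, compares with 3.13 for miR-342-3p. The summed list ranged from 2756 to 4108 CPM in LF (median 3538), from 4057 to 6233 in HF (median 5272) and from 3515 to 5319 in HFLF (median 4038). HF and LF overlapped in the sum by a narrow margin, HF 6 being the lowest HF library.

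Of the 6 most abundant members, miR-146b-5p, a feedback inhibitor of innate immune signalling, rose from 1153 ± 161 to 2487 ± 571 CPM (log2 fold change 1.11, SE 0.23, edgeR adjusted p = 0.00120). The myeloid miR-223-3p rose from 371.5 ± 45.9 to 657 ± 125 CPM (0.82, adjusted p = 0.000312), and miR-155-5p, which promotes inflammatory activation, from 129 ± 17.5 to 247 ± 49.0 CPM (0.94, adjusted p = 0.000291). The other three did not pass: the values were -0.38 for miR-150-5p, of mature lymphocytes (adjusted p = 0.268), 0.30 for miR-146a-5p (0.218) and 0.43 for miR-142a-5p, of all blood lineages (0.161). For HFLF against HF 4 of the 11 were lower and 0 higher (median -0.49, against -0.09 over all 571 miRNAs, of which 16.3% were lower). With the replicate number as a block 2 were lower and 1 higher (79 and 51 of all 571), and with total-count scaling 7 were lower and 0 higher (138 and 25). By RLE and by DESeq2, 3 were lower and 1 higher. For HFLF against LF 0 of the 11 passed (edgeR, median 0.32; 1 by DESeq2). In liver 1 of 11 passed for HF against LF, miR-511-5p at -1.004 (edgeR adjusted p = 0.00547), a count near the 5.69% of all liver miRNAs that passed (3.08% lower).

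Relative to the leukocyte sum, miR-342-3p amounted in eWAT to 2.41% to 3.75% in LF (median 2.84%), 4.59% to 32.96% in HF (median 13.7%) and 3.06% to 5.70% in HFLF (median 3.84%). All HF libraries but HF 5 exceeded all HFLF libraries on this ratio. In liver it was 7.76% ± 1.27 in LF, 9.58% ± 1.80 in HF and 8.15% ± 0.763 in HFLF (SD, n = 6 each). The sum is weighted by its abundant members. In eWAT LF miR-146b-5p averaged 1153 CPM and miR-150-5p 1019 CPM, of a mean sum of 3467. In eWAT HF they averaged 2487 and 782 CPM, of 5232. In liver LF miR-146a-5p averaged 396 CPM, of a mean sum of 796. The ratios in eWAT and in liver therefore rest on different main members. Within eWAT HF, miR-342-3p and the leukocyte sum had an r of 0.69 over the 6 libraries (Spearman rho 0.71, adjusted permutation p = 0.233, r without the 2 farthest libraries 0.331). The pair was chosen by its levels in these HF libraries, so this r and the HF ratios above are a description. In eWAT HFLF r was 0.91 (raw exact permutation p = 0.0444, adjusted p = 0.233; 0.641 without the 2 farthest) and in eWAT LF 0.19 (rho -0.14, adjusted permutation p = 0.725; r 0.720 without the 2 farthest). None of the 6 relations of this kind, liver included, passed after adjustment.

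Adipocyte miRNAs ran the other way. Of 10 tested in eWAT, 9 were lower and 0 higher for HF against LF (edgeR, median -0.69, against 15.2% lower among all miRNAs), and 8 were higher for HFLF against HF (median 0.60, against 9.63% higher among all miRNAs). With total-count scaling these counts were 4 and 3, where 53 of all 571 were lower in the first comparison and 25 higher in the second. The second count was 5 with the replicate block (51 of 571) and 4 without LF 4, LF 5 and HFLF 4 (35 of 585). Within HF the summed adipocyte list was lowest in HF 3, at 125416 CPM, the library highest in miR-342-3p, and highest in HF 5, at 243492 CPM, the library lowest in miR-342-3p. The part of cell makeup in the miR-342 difference was not tested.

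By the likeness of their values to those of miR-342-3p over the 18 eWAT libraries, after subtraction of each diet's mean log2 CPM, miR-342-5p came first of 570 miRNAs with an r of 0.962. miR-221-3p (0.946), miR-222-3p (0.937), miR-23b-5p (0.898), miR-27b-5p (0.875) and miR-221-5p (0.865) followed. miR-221 and miR-222 come from a shared precursor on the X chromosome and are known to repress the cell-cycle inhibitor p27. miR-23b and miR-27b are likewise cut from a shared precursor, and the strands named here are their 5p arms. Much of the likeness lay in HF: within the 6 HF libraries miR-221-3p had an r of 0.996 and miR-222-3p of 0.980, against 0.712 and 0.732 over the 12 centred LF and HFLF libraries. For miR-23b-5p, miR-27b-5p and miR-221-5p r was 0.969, 0.942 and 0.978 within HF. Over those 12 libraries it fell further for these miRNAs, to 0.429, 0.519 and 0.272. These values are a description: all points share library, depth and scaling.

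miR-221-3p was at 4434, 2698, 9323, 5914, 1508 and 2062 CPM in HF libraries 1 to 6, the same order as miR-342-3p. Without HF 3, r over the remaining 5 HF libraries was 0.993. Between diets these miRNAs rose as well: for HF against LF the log2 fold change was 2.21 (SE 0.35) for miR-221-3p, 2.42 (SE 0.39) for miR-222-3p, 1.65 (SE 0.35) for miR-23b-5p, 1.12 (SE 0.31) for miR-27b-5p and 1.89 (SE 0.39) for miR-221-5p, with adjusted p by edgeR from 0.000312 to 0.00869. In liver miR-221-3p stood at rank 121 of 421 by the same measure (r 0.208).

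Most of the tested leukocyte miRNAs had a positive r by this measure. miR-142a-3p was at rank 16 (r 0.760, and 0.958 within HF), miR-511-5p at 17 (0.738, and 0.871) and miR-223-5p at 21 (0.653, and 0.826). miR-223-3p was at 24 (0.627, and 0.810), miR-142a-5p at 30 (0.592, and 0.854) and miR-511-3p at 58 (0.495, and 0.752). Then came miR-146b-5p at 76 (0.436, and 0.594) and miR-146a-5p at 140 (0.317, and 0.346). An r below 0 was seen for miR-150-3p at 318 (-0.042, and -0.379 within HF). miR-155-5p (r -0.098, and -0.43 within HF) and miR-150-5p (-0.143, and -0.42 within HF) were at ranks 346 and 368, although miR-155-5p rose with HF as a group. miR-504-5p, whose HF rise over LF was as large as that of miR-342-3p (log2 fold change 3.21, SE 0.60, edgeR adjusted p = 0.000598), had an r of -0.125 and of -0.62 within HF. In liver the miRNAs most like miR-342-3p were miR-501-3p (r 0.846), miR-223-3p (0.824), miR-34a-5p (0.722), miR-3068-3p (0.712) and miR-532-5p (0.704), and its own 5p arm was at rank 286 of 421 (r -0.117). In eWAT the leukocyte order differed over the 12 centred LF and HFLF libraries. There r was 0.528 for miR-155-5p, 0.504 for miR-511-5p, 0.487 for miR-150-3p, 0.481 for miR-146b-5p, 0.439 for miR-142a-3p and 0.401 for miR-150-5p. It was 0.351 for miR-142a-5p, 0.263 for miR-146a-5p, 0.226 for miR-223-3p, -0.060 for miR-511-3p and -0.082 for miR-223-5p. The r below 0 of miR-155-5p and miR-150 thus depended on HF.

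**Figure D3:**
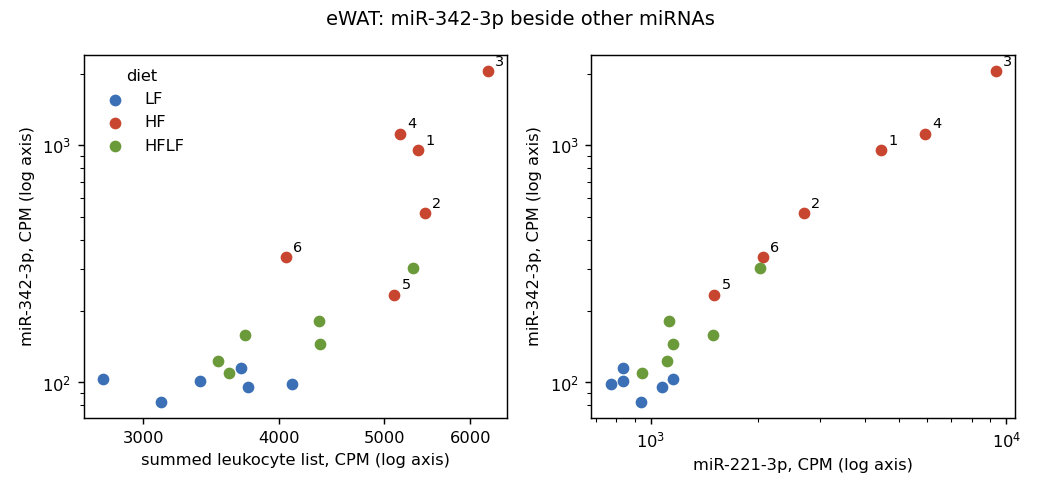
miR-342-3p in the 18 eWAT libraries against the summed leukocyte list and against miR-221-3p, all in CPM on log axes, with HF libraries numbered. HF libraries follow miR-221-3p from 1508 CPM in HF 5 to 9323 CPM in HF 3 in the order of miR-342-3p. Their leukocyte sums run from 4057 CPM in HF 6 to 6233 CPM in HF 3, the library highest in miR-342-3p. HF 5, the library lowest in miR-342-3p, holds a leukocyte sum of 5108 CPM. Over the 6 HF libraries miR-342-3p and the leukocyte sum had an r of 0.69 (adjusted permutation p = 0.233). The pair was chosen by its levels in these HF libraries.

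Other miRNAs of the same stretch of chromosome 12 did not form a single block with miR-342. Within 2 Mb of its hairpin RefSeq places 59 others, none of those tested on the side of lower coordinates, and 58 of their mature names were tested in eWAT. For HF against LF 33 of the 58 were higher and 3 lower (edgeR, median 1.01; 19.6% of all miRNAs were higher), and for HFLF against HF 31 were lower and 2 higher (median -0.99; 16.3% of all were lower). By total counts 47 of the 58 were higher in the first comparison, as were 205 of all 571, and 42 were lower in the second, as were 138 of all. Nearly all lie 913 kb to 1085 kb away, in the imprinted Dlk1-Dio3 region. The nearest, miR-345, at 178 kb, ran opposite to miR-342. miR-345-3p ranged in eWAT LF from 12.2 to 29.3 CPM with a median of 16.9, in HF from 6.93 to 13.2 with a median of 9.48, and in HFLF from 14.03 to 19.2 with a median of 18.0.

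HF values of miR-345-3p lay below those of the other diets but for an overlap with LF at the edge. Its log2 fold change for HF against LF was -0.91 (SE 0.23, edgeR adjusted p = 0.00525) and that of miR-345-5p -0.65 (SE 0.23, adjusted p = 0.0386). For HFLF against HF they were 0.83 (adjusted p = 0.0142) and 0.74 (adjusted p = 0.0287). The call for HF against LF of miR-345-5p was lost with total-count scaling (-0.37, adjusted p = 0.203) and without LF 4, LF 5 and HFLF 4 (-0.71, adjusted p = 0.0637), and that of miR-345-3p held in both (-0.63, adjusted p = 0.0313; -1.12, adjusted p = 0.00299). Next came miR-673, where miR-673-3p rose (3.14, SE 0.56, adjusted p = 0.000523), though its LF mean of 0.243 CPM lay at the limit of 3 counts (0.239 to 0.402 CPM in eWAT), and miR-673-5p had 0.63 (adjusted p = 0.161). In liver 0 of 19 tested neighbours passed in any comparison (edgeR), where 5.69% of all liver miRNAs passed for HF against LF and 0% in the other two. By DESeq2, 2 of the 19 were lower for HFLF against LF (median -1.16, as against -1.17 by edgeR). The third lower one in eWAT was miR-1247-5p at 1619 kb (-1.13, adjusted p = 0.0156).

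**Figure D4:**
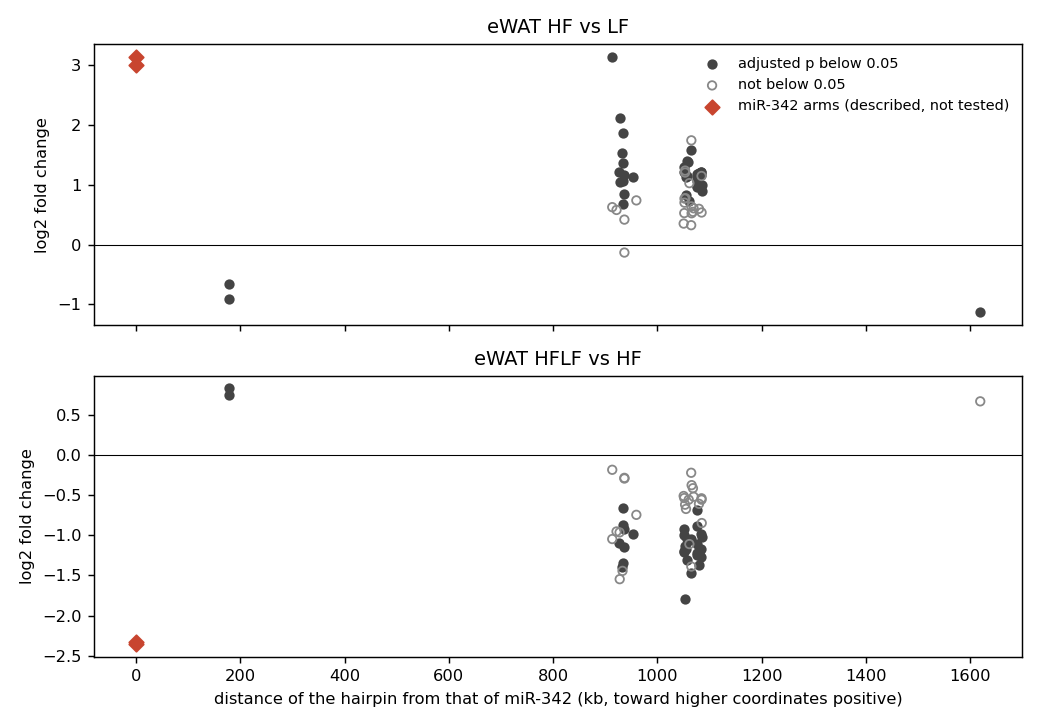
Log2 fold changes in eWAT of miRNAs within 2 Mb of the miR-342 hairpin, against the distance of their hairpins in kb, for HF over LF (upper panel) and HFLF over HF (lower panel). Filled points passed an edgeR adjusted p of 0.05, open ones did not, and diamonds are the arms of miR-342, given as a description. miR-345 at 178 kb lies on the other side of 0 from miR-342 in both panels, and the group from 913 kb to 1085 kb lies mostly on its side.

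In sperm the table gives values that were read as log2, with no counts. miR-342-3p ranged in LF from 8.27 to 9.24 with a median of 8.90, in HF from 8.59 to 10.02 with a median of 9.09, and in HFLF from 8.09 to 9.55 with a median of 8.47. It ranked 15 of the 79 by its mean and is in the authors' cluster 1, which holds 35 of them. The diets overlapped. The means were 8.83 ± 0.36 in LF, 9.26 ± 0.57 in HF and 8.60 ± 0.54 in HFLF (SD, n = 6 each).

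No sperm difference of miR-342-3p passed (limma, adjusted over the 79 miRNAs). HF exceeded LF by 0.42 (SE 0.29, adjusted p = 0.268; 0% of the 79 passed). HFLF differed from LF by -0.23 (SE 0.29, adjusted p = 0.749; 0% passed). HFLF differed from HF by -0.65 (95% confidence interval -1.25 to -0.05, limma adjusted p = 0.111; 1.27% passed, which is miR-1a-3p alone). At an unadjusted p below 0.05 there were 24, 11 and 29 miRNAs in these comparisons, and the median differences of all 79 for HF against LF and for HFLF against HF were 0.26 and -0.26. The authors chose the 79 miRNAs, and the rule of choice is not given in the sources used here, so a direction shared with fat is not independent evidence.

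Between tissues on the control diet, the order of the miR-342 levels depended on scaling. For eWAT LF against liver LF the log2 fold change with TMM was -0.57 for miR-342-3p (95% confidence interval -1.18 to 0.05, edgeR adjusted p = 0.0959) and -0.33 for miR-342-5p (adjusted p = 0.497), in a comparison that 65.2% of 595 miRNAs passed (37.1% higher in eWAT). With total counts both turned to higher in eWAT, 0.67 (adjusted p = 0.0564) and 0.90 (adjusted p = 0.0599). The median over all 595 was 0.36 under TMM and 1.57 under total counts, and miR-342 lay below it each time. As a share of all counts, miR-342-3p was at 91.2 ± 13.2 per 1000000 in eWAT LF and 57.5 ± 9.20 in liver LF (SD, n = 6 each). The eWAT LF libraries belong to the comparison for which miR-342 was chosen.

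The HFLF against LF difference was larger in eWAT than in liver by 0.83 on the log2 scale for miR-342-3p (95% confidence interval -0.04 to 1.69, interaction in edgeR, adjusted p = 0.456) and by 0.54 for miR-342-5p (adjusted p = 0.734). It did not pass for either arm, as for 0% of the 595 miRNAs (0 by edgeR, 69 at an unadjusted p below 0.05). This contrast too uses the eWAT LF libraries of the comparison for which miR-342 was chosen. Libraries of liver and eWAT carry the same numbers, without a statement that a number is the same mouse. Over the 6 same-numbered pairs of a diet, log2 CPM of miR-342-3p in eWAT and liver had an r of 0.77 in LF (rho 0.77, adjusted permutation p = 0.113; 0.594 without the 2 farthest), 0.80 in HF (rho 0.77, adjusted permutation p = 0.113; 0.951) and 0.08 in HFLF (rho 0.26, adjusted permutation p = 0.886), where r turned to -0.380 without the 2 farthest. None of the 3 passed. The HF relation uses the eWAT libraries by whose levels the pair was chosen, and the LF relation those of the same comparison.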

How the data were processed

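Per the labels' protocols, the NEXTFLEX kit for small RNA (v3) was used for the libraries. cutadapt, Bowtie and GRCm38.p6 are named per the submitters' processing notes. Their versions, the counting program and the miRNA reference are not given in the sources used here. In the deposited tables of liver and eWAT the values are raw counts, by mature miRNA. The deposited sperm table holds values read as log2, whose transformation is not stated, for 79 miRNAs and a further cluster number (other). Column codes C or CD were taken to mean LF, H or HF to mean HF, and R or RE to mean HFLF. As no source explains C and R, those groups depend on this reading. "HLD" in the diet text was read as the high-fat diet. Not used were 36 columns: 18 liver columns repeated in the eWAT table and 18 of F1 sperm that match no sample here.

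Counts were fitted per tissue with edgeR 4.0.16 (R 4.3.3; filterByExpr, TMM, quasi-likelihood, 3 diets in 1 fit), and both tables in 1 fit for comparisons of tissues. Log2 CPM used a prior count of 2. Sperm was fitted with limma 3.58.1 (eBayes with trend). miRNAs with a p below 0.05 after Benjamini-Hochberg adjustment are called. Shares and correlations used exact permutations (SciPy 1.17.1). SE is that of the log2 fold change. The edgeR step was tested on simulated data. Alternatives were RLE and total-count scaling, no filter, DESeq2 1.42.0, only both groups compared, the replicate block, and leaving out libraries. The counts of the marker and neighbour lists under other settings were added after seeing the data.

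The members, lists and tests were chosen with earlier results of these data known. Named beside the arms are the 6 leukocyte miRNAs of highest mean in eWAT, the 4 mature names nearest on the chromosome, and the 5 miRNAs most like miR-342-3p per tissue. miR-511-5p in liver, miR-504-5p, miR-1247-5p and miR-1a-3p were named after their values were seen, as were leukocyte miRNAs given by rank of likeness. Of the 1966 names 1675 matched a RefSeq sequence. Introns are from GENCODE M21. Lists that the text leaves out, for HF against LF in eWAT: hepatocyte 3 of 5 lower, epithelial 5 of 5 lower, male germ cell and epididymis 3 of 5 lower, erythroid 2 of 4 lower, striated muscle 3 of 4 lower and endothelial 0 of 2 (edgeR), none higher, against 15.2% lower among all miRNAs. Without LF 4, LF 5 and HFLF 4 the lower counts were 2, 5, 0, 0, 3 and 0 in that order (60 of all 585), with the replicate block 2, 3, 0, 2, 2 and 0 (65 of 571), with total counts 2, 5, 2, 0, 3 and 0 (53), with RLE 3, 5, 4, 3, 3 and 2 (111) and with DESeq2 4, 5, 4, 4, 3 and 2 (120).

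Whether equal numbers pair libraries was checked by the correlation of their deviations from the group means. It ranged from -0.776 to 0.706 between diets of a tissue and from -0.086 to 0.112 between eWAT and liver, not over 0.1 in every pair, so numbers were not taken to pair libraries. No pair of replicates agreed within counting noise (chi-square per degree of freedom at least 41.8). Counting limits and intervals cover counting error only. For sperm the depth is unknown.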

Additional observations from a re-analysis of the deposited data

Results flagged for a closer look

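In eWAT of HFLF mice, library 2 stood apart from the other 5 for both arms. It held 303.3 CPM of miR-342-3p, where the others held 110.0 to 181.7 CPM, and 19.4 CPM of miR-342-5p, where the lowest held 6.77 CPM and the group median was 9.43 CPM. The gap to the nearest library, as a part of the group's whole range, exceeded the 95% limit for 6 samples. Chance flags about 1 in 20 groups. The same library held the highest miR-221-3p of its group (2031 CPM) and the highest summed leukocyte list (5319 CPM). Without it the log2 fold change of miR-342-3p for HFLF against LF was 0.52 (edgeR adjusted p = 0.722). The cause was not tested.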

How the results depend on the processing

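The descriptive eWAT fold changes of both arms kept their direction in all alternatives run. Leaving out 1 library in turn gave 2.70 to 3.36 (miR-342-3p) and 2.60 to 3.24 (miR-342-5p) for HF against LF, lowest without HF 3, and -2.63 to -1.93 and -2.63 to -1.92 for HFLF against HF. Of the tested values of the arms, 1 crossed the threshold: miR-342-3p in eWAT LF against liver LF with only both groups compared (-0.57, adjusted p = 0.00736). That value turned to 0.67 with total counts, and that of miR-342-5p to 0.90. Total counts also turned miR-342-3p for HFLF against LF in liver (0.042), miR-342-5p for HFLF against HF in liver (-0.082) and the HFLF correlation of eWAT with liver (-0.14). The log2 ratio of the arms turned the liver 5p share for HF against LF (0.13).

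Leaving out each library gave ranges that cross 0 in liver for miR-342-5p HF against LF (-0.092 to 0.27), miR-342-3p HFLF against LF (-0.17 to 0.043), miR-342-5p HFLF against LF (-0.044 to 0.29) and miR-342-5p HFLF against HF (-0.13 to 0.22). The same held for the 5p share, in percentage points, for liver HF against LF (-1.42 to 0.315), liver HFLF against LF (-0.618 to 1.12), eWAT against liver in LF (-0.401 to 1.33), in HF (-0.121 to 0.685) and in HFLF (-0.534 to 0.228). Liver LF 3, with 5 counts of the 5p arm, was among the libraries that turned a sign.

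Counts of miRNAs called moved more. Liver HF against LF gave 24, with 61 by total counts, 47 by DESeq2 and 16 to 49 without 1 library. Liver HFLF against LF gave 0, with 15 without a filter, 4 by DESeq2, 2 with only both groups compared and 0 to 1 without 1 library. Liver HFLF against HF gave 0, with 1 by RLE, 9 without a filter, 15 by DESeq2 and 0 to 6 without 1 library. eWAT HFLF against LF gave 0, with 9 by DESeq2, 7 without LF 4, LF 5 and HFLF 4 together, and 0 to 12 without 1 library (12 without HFLF 4). eWAT HFLF against HF gave 148, with 89 without a filter and 91 to 160 without 1 library (lowest without HF 3). For these changes the cause was not tested.

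Libraries of equal number share only that number. With the replicate block miR-342-3p in eWAT was at 2.89 for HF against LF, -2.15 for HFLF against HF and 0.74 for HFLF against LF (adjusted p = 0.582), and no tested value of the arms changed its call. The low counts of miR-342-5p in liver and the missing counts in sperm limit what those comparisons can show.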
